A study of Mus musculus with 36 samples.

Results

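The genes Bcl6, Cxcr5, Icos, Pou2af1, Rora, Ahr and Il23r are tied to the fates of follicular helper T cells (Tfh) and of Th17 cells, and their RNA was followed through naive, Th1 and Th2 cells of wild-type mice and of a mutant strain whose label names Ets1. These 7 genes were chosen by symbol, matched to Ensembl identifiers through the GENCODE M21 annotation, and all 7 were found among the 45706 genes in the count tables. The labels name no Tfh and no Th17 culture, so every value below is the level of a fate gene in cells of another fate.

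Tfh cells sit in B cell follicles and help germinal centre B cells. BCL6 is the repressor that sets this program, CXCR5 the chemokine receptor that leads the cell into the follicle, and ICOS the costimulatory receptor that keeps it there. Pou2af1 encodes OCA-B (BOB.1), a coactivator that binds OCT factors on DNA and is best known from B cells. Th17 cells make interleukin 17. ROR alpha, encoded by Rora, is one of the nuclear receptors that set their program, the aryl hydrocarbon receptor (Ahr) drives interleukin 22, and the interleukin 23 receptor (Il23r) sustains them.

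The cells came from spleen. Naive CD4 T cells had been enriched by removing other cells, and Th1 cells were grown from them on plates coated with an antibody to CD3, with interleukin 12, interleukin 2 and an antibody to CD28. The labels do not describe the Th2 culture or the ages of the mice. WT cells carry the strain label C57BL/6J, and KO cells the label C57BL/6J-Ets1-SE-KO, a mutant strain named for Ets1, the gene of a T cell transcription factor. The labels do not name the deleted interval. The naive set has 2 WT and 2 KO libraries. The first culture has 3 libraries each of Th1 WT, Th1 KO, Th2 WT and Th2 KO. All naive and first-culture titles carry the same first replicate number (B number 1) and differ in the second, whose meaning the labels do not give. These libraries were tested as separate samples (n = 2 and n = 3), but summed by B number each of these groups would be 1 sample with no test. A second Th1 experiment has untransduced WT and untransduced KO cells (2 libraries each), WT cells given an empty retrovirus and KO cells given an Ets1 retrovirus (4 libraries each). Its libraries that share a B number were summed, so n = 2 in each of its groups. The labels do not name the promoter that drives Ets1 in the virus. They also do not say whether replicate libraries came from different mice or cultures. The p-values here therefore speak only of the spread among libraries, which may be technical in the naive set and the first culture. In the second experiment the 2 sums of each group differ in sex, as given below. The other 8 of the 36 libraries have a title and a transduction label that name different viruses and entered no comparison.

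Gene counts per library were 5069623 to 5852673 for naive cells and 7311614 to 10256407 for the first culture, and those with usable labels in the second experiment had 1813288 to 6844944. Levels are CPM, a gene's share of all gene counts of its library, scaled by TMM factors. Ets1 itself was at 1560 ± 1.90 CPM in naive WT and 606 ± 15.8 CPM in naive KO cells (SD, n = 2), at 681 and 500 CPM in Th1, and at 714 and 610 CPM in Th2 WT and KO cells (n = 3). In the second experiment it was at 446 CPM in untransduced WT, 264 CPM in untransduced KO, 399 CPM with the empty virus and 481 CPM in KO cells with the Ets1 virus (n = 2). Gm27162 was at 0 counts in each labelled KO sample and at 1.42 CPM or more in each labelled WT sample. Summed markers of CD4 T cells were at 976 to 2361 CPM in all labelled samples, those of Th1 cells (Tbx21, Ifng, Il12rb2, Cxcr3) at 566 to 1358 CPM in the first Th1 cultures against 96.7 to 156 CPM in Th2, and those of Th2 cells (Gata3, Il4, Il5, Il13) at 624 to 699 CPM in Th2 against 155 to 323 CPM in Th1 WT and 341 to 728 CPM in Th1 KO. The highest Th1 KO library thus exceeded the Th2 libraries in the Th2 markers.

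The naive WT and KO libraries differ in more than genotype. Mean Xist, the RNA of the inactive X chromosome, was 416 CPM in WT with no count in KO. Uty, on the Y chromosome, had no count in WT and 40.8 CPM in KO, so genotype and sex cannot be told apart in naive cells. The heat shock gene Hspa1a was at 19.98 CPM in WT and 292 CPM in KO, and Cd44, a marker of activated T cells, at 18.4 and 6.21 CPM. In the first culture no library had a count of Uty. In the second experiment Uty had counts in the B number 1 sum of each group and none in the B number 2 sum. Xist was at 0 to 0.264 CPM in 1 sum of each group and at 259 to 400 CPM in the other. The 2 sums of a group thus hold cells of different mice, and B number and sex cannot be told apart. The main fit has no term for either.

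Bcl6 was highest in naive cells and Il23r in Th1 cells, while Ahr and Pou2af1 had their highest levels in Th2 cells. Icos and Rora were highest in the second Th1 experiment, and Cxcr5 stayed between 2.62 and 8.55 CPM in group means. Per kilobase of exon, which allows genes to be compared, Icos had the highest level of the 7 in naive, Th1 and Th2 WT cells and in untransduced WT cells (33.9 CPM per kb). In naive WT cells Icos had a level of 8.45 CPM per kb, Bcl6 2.497, Pou2af1 1.79, Cxcr5 1.06, Rora 0.823 and Ahr 0.562. In Th1 WT cells of the first culture Icos had 18.9 CPM per kb, Il23r 5.12, Pou2af1 2.25, Rora 1.87, Cxcr5 0.817, Ahr 0.812 and Bcl6 0.201. In Th2 WT cells Icos had 8.93 CPM per kb, Ahr 6.46, Pou2af1 6.36, Rora 1.14, Cxcr5 0.785, Bcl6 0.242 and Il23r 0.0955.

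**Figure D1:**
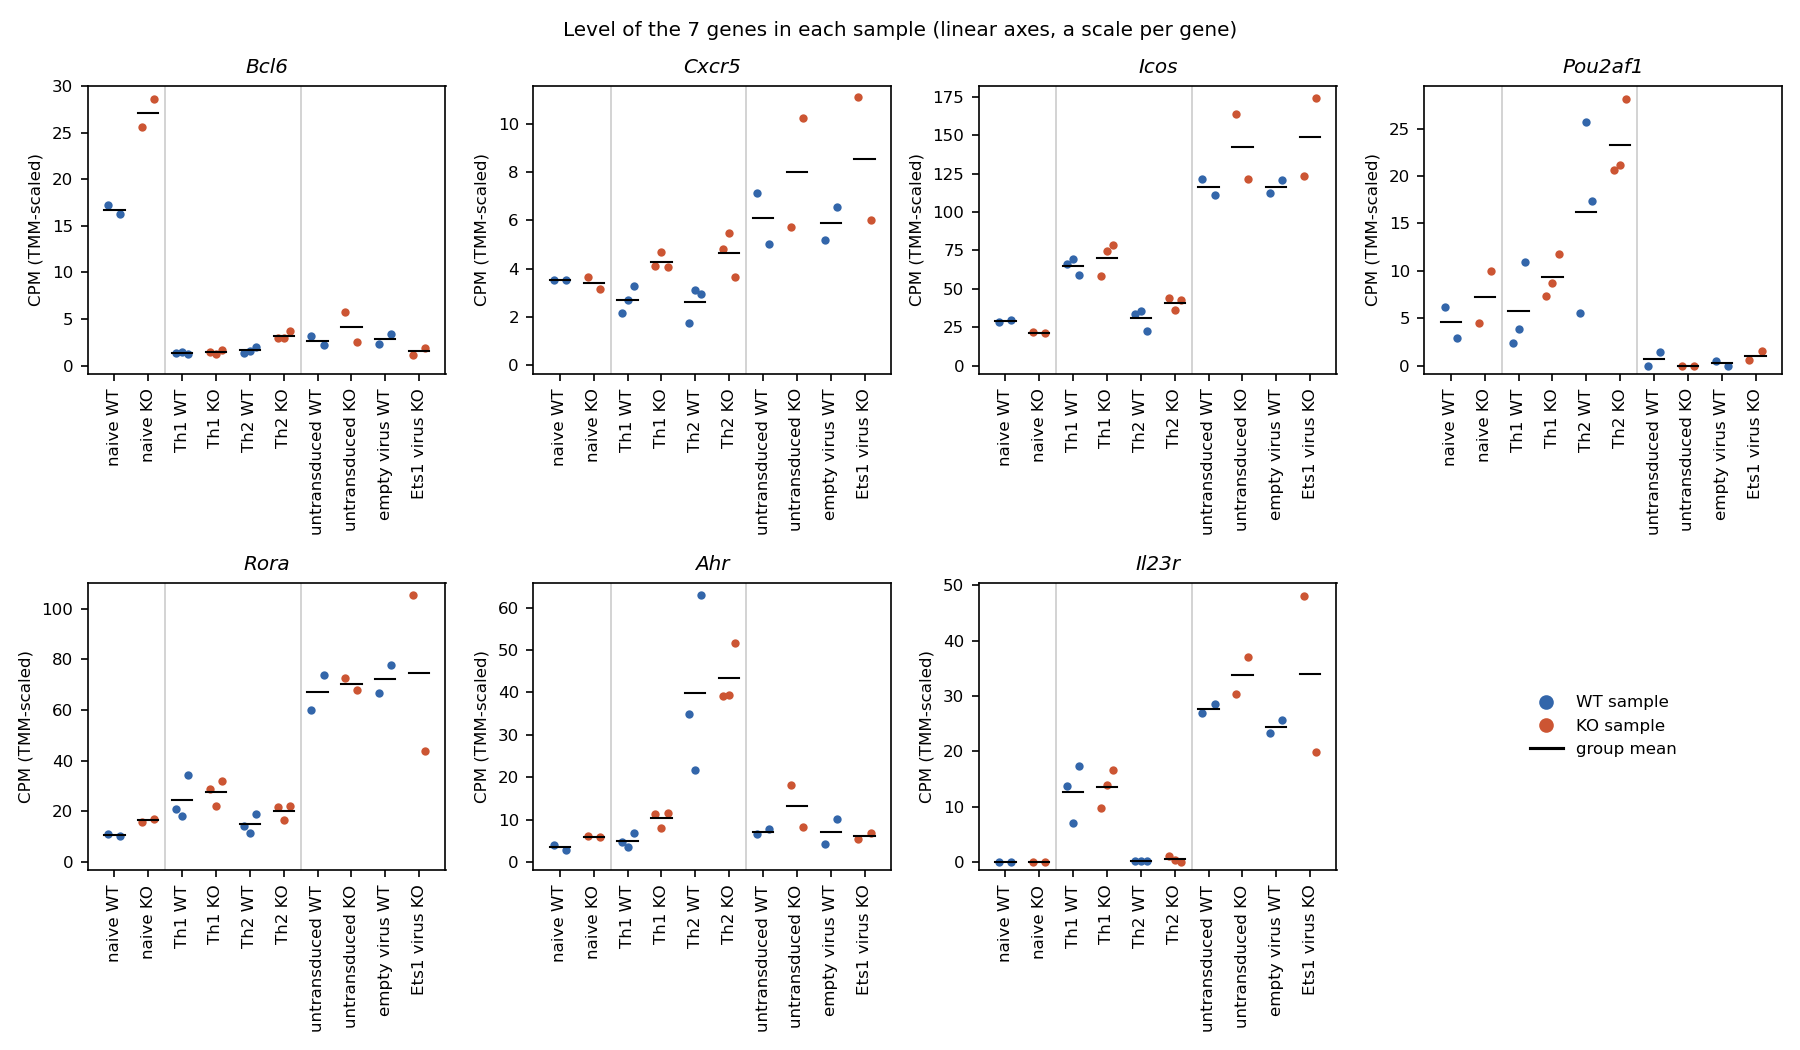
Level of each gene (CPM, TMM-scaled, linear axes with a scale of their own) in every sample of the 10 labelled groups; points are libraries or, in the last 4 groups, sums of libraries with the same B number, and bars are group means. Bcl6 is at 16.2 to 28.6 CPM in the 4 naive libraries and at most 5.74 CPM elsewhere, and Il23r is at 0 in naive cells, at most 1.15 CPM in Th2 and at least 7.10 CPM in every Th1 sample.

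Bcl6 (chr16:23965052-23988852, minus strand, GRCm38) is the master repressor of the Tfh fate. It had 17.2 and 16.2 CPM in the naive WT libraries and 25.6 and 28.6 CPM in the naive KO libraries. In the first culture the 6 Th1 libraries had 1.22 to 1.64 CPM, the Th2 WT libraries 1.30, 1.56 and 2.01 CPM, and the Th2 KO libraries 2.98, 2.94 and 3.66 CPM. Every naive library was thus above every cultured one, and every Th2 KO library above every Th2 WT and Th1 library. From naive to Th1, Bcl6 fell in WT cells with a log2 fold change of -3.67 (SE 0.21, adjusted p = 3.91e-14), and from naive to Th2 with -3.41 (SE 0.22, adjusted p = 2.79e-13). Cell state, culture and any difference of sequencing run between the sets cannot be told apart in these 2 comparisons, in which 76.1% and 76.9% of 14029 genes tested were called and the median log2 fold change over all genes was 0.10 and 0.08. In the first, 3 of 7 members were higher in Th1 (40.0% of all genes were) and 1 lower (36.1%), and in the second 2 were higher in Th2 (40.2%) and 1 lower (36.6%).

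The RefSeq promoter windows of GRCm38.p6 cover 4 of the 7 genes. For Bcl6 and Rora the 250 bases before each annotated start are shown because the label of the KO strain names Ets1. Both were called higher in naive KO cells, where genotype and sex cannot be told apart. The Rora call was lost without any single naive library, and the Bcl6 call without either KO library. The ETS core GGAA was searched on both strands with 2 bases before it, as CCGGAA and as CAGGAA, and matches are in capitals; the motifs share their last 4 letters and cannot match at the same place. The motifs were picked after the expression values were known.
Bcl6, start within the gene, minus strand, chr16:23981284-23981533: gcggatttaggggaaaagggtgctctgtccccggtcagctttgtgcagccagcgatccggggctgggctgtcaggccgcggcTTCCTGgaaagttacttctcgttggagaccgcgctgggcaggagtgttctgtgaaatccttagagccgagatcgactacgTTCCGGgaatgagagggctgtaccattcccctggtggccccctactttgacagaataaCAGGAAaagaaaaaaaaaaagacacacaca
Bcl6, upstream start, minus strand, chr16:23988853-23989102: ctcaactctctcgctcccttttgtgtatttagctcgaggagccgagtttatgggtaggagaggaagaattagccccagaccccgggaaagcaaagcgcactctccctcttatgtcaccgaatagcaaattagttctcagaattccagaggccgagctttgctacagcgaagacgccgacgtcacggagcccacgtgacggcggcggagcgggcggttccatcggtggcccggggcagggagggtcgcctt
Rora, plus strand, chr9:68653536-68653785: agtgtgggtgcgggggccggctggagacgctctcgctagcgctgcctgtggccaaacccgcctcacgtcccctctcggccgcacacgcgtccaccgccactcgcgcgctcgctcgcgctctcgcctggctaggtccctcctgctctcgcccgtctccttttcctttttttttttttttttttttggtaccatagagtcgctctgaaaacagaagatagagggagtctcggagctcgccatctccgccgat
The window of the inner Bcl6 start held 3 matches, whose first bases lie 168 (CAGGAA, minus strand of the window), 88 (CCGGAA, minus strand) and 30 bases (CAGGAA, plus strand) before the start. The upstream Bcl6 window and the windows of Rora, Pou2af1 and Il23r held none. Of 32851 windows of the same length in the table, 35.1% held either motif, so the matches describe the letters and show no binding.

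Cxcr5 (chr9:44511787-44561877, minus strand), the follicle-homing receptor, was low in all groups. The naive libraries had 3.54 and 3.54 CPM in WT and 3.66 and 3.16 CPM in KO. Th1 WT libraries had 2.17, 2.72 and 3.28 CPM against 4.10, 4.69 and 4.06 CPM in Th1 KO, and Th2 WT libraries 1.77, 3.12 and 2.96 CPM against 4.82, 5.48 and 3.66 CPM in Th2 KO. In both cultures every KO library was above every WT library, an order that the naive libraries did not have. Neither difference passed the threshold (edgeR, adjusted p = 0.170 in Th1 and 0.237 in Th2). Bcl9l, on the opposite strand, overlaps Cxcr5, and had 6487 counts against 940 of Cxcr5 over all libraries, so the strand-specific counts matter here. From naive to Th1 in WT Cxcr5 had a log2 fold change of -0.42 (SE 0.30, adjusted p = 0.207), and from naive to Th2 -0.49 (SE 0.31, adjusted p = 0.155). With counts without strand both passed, at -0.68 (adjusted p = 0.0310) and -0.70 (adjusted p = 0.0320).

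Icos (chr1:60977927-61000320, plus strand) encodes the costimulatory receptor. It had 28.3 and 29.6 CPM in naive WT against 21.9 and 20.9 CPM in naive KO cells. The Th1 WT libraries had 66.1, 69.3 and 59.2 CPM and the Th1 KO libraries 58.1, 74.6 and 78.2 CPM, which overlap. The Th2 WT libraries had 33.6, 35.8 and 22.6 CPM and the Th2 KO libraries 43.8, 36.3 and 42.6 CPM, all 3 above WT. The order of KO and WT was therefore opposite in naive and Th2 cells. Icos rose from naive to Th1 in WT cells (log2 fold change 1.12, SE 0.15, adjusted p = 3.68e-07), and its naive to Th2 value was 0.03 (SE 0.16, adjusted p = 0.880). An unnamed gene model, Gm37039, lies on the same strand within Icos and had 599 counts over all libraries.

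Pou2af1 (chr9:51213708-51240080, plus strand) varied widely within groups. The naive libraries had 6.19 and 2.95 CPM in WT and 4.49 and 9.94 CPM in KO. The Th1 WT libraries had 2.35, 3.89 and 10.98 CPM, the Th1 KO libraries 7.39, 8.69 and 11.8 CPM, the Th2 WT libraries 5.55, 25.7 and 17.4 CPM and the Th2 KO libraries 20.6, 21.2 and 28.1 CPM. In the second Th1 experiment it was nearly absent, with 0 to 12 counts per sample and at most 1.53 CPM. In WT it rose from naive to Th2 (log2 fold change 1.77, SE 0.54, adjusted p = 0.00445), a call lost without naive WT replicate 2 (adjusted p = 0.0705), and its naive to Th1 value was 0.31 (SE 0.59, adjusted p = 0.634).

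Some B cell genes had the same order as Pou2af1 over the Th2 WT libraries and others did not. Across Th2 WT replicates 1, 2 and 3, in which Pou2af1 was at 5.55, 25.7 and 17.4 CPM, Cd79a was at 1.06, 2.76 and 1.89 CPM and Cd79b at 2.25, 6.96 and 5.08 CPM, while Ebf1 was at 15.5, 13.4 and 22.5 CPM and Ms4a1 at 0.473, 0.600 and 0.355 CPM. Across Th2 KO replicates Cd79a was at 1.72, 3.05 and 2.18 CPM, in another order than Pou2af1, and Ighm and Ebf1 also differed in order. Cd79b (4.01, 5.68 and 6.24 CPM), Pax5 (3.10, 3.45 and 4.75 CPM) and Ms4a1 had the order of Pou2af1 there. Pax5 also had it across Th2 WT (1.65, 3.72 and 2.72 CPM) and Th1 KO replicates (0.700, 1.30 and 3.20 CPM). Across Th1 WT replicates Pax5 did not (0.994, 0.876 and 2.62 CPM). Across Th1 WT replicates Cd79a was at 0.452, 0.681 and 0.983 CPM, in the same order as Pou2af1, while Cd79b at 1.63, 1.17 and 1.31 CPM was not. Summed over the 11 B cell markers, the first-culture libraries held 38.6 to 90.6 CPM, of which Ighm and Ebf1 made up most, while the defining marker Ms4a1 was at most 0.693 CPM in them. The part of these genes in the Pou2af1 values was not tested. In bulk RNA, fewer cells of a type and less RNA per cell cannot be told apart.

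**Figure D2:**
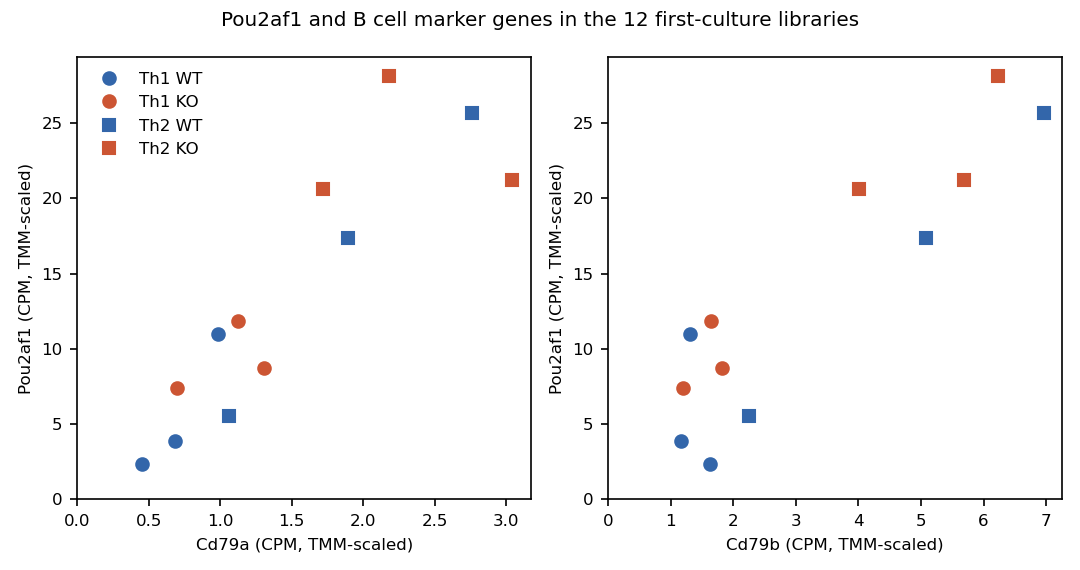
Pou2af1 (vertical axes) against the B cell genes Cd79a and Cd79b (horizontal axes), all in CPM on linear axes from 0, in the 12 first-culture libraries; circles are Th1, squares Th2, blue WT and red KO. The libraries with the highest Pou2af1 levels, Th2 KO replicate 3 at 28.1 CPM and Th2 WT replicate 2 at 25.7 CPM, also have the highest Cd79b levels (6.24 and 6.96 CPM). The highest Cd79a level (3.05 CPM) is in Th2 KO replicate 2, where Pou2af1 is at 21.2 CPM. Other B cell markers are not plotted, and the highest Ebf1 level (37.0 CPM) is in Th1 WT replicate 3, with Pou2af1 at 10.98 CPM.

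Rora (chr9:68653786-69388246, plus strand) encodes the Th17 factor ROR alpha. It had 11.2 and 10.3 CPM in naive WT and 15.95 and 16.9 CPM in naive KO cells, with no overlap. The Th1 WT libraries had 20.8, 18.3 and 34.2 CPM and the Th1 KO libraries 29.0, 22.2 and 32.0 CPM. The Th2 WT libraries had 14.2, 11.6 and 18.9 CPM and the Th2 KO libraries 21.8, 16.4 and 22.3 CPM. Rora rose from naive to Th1 in WT (log2 fold change 1.14, SE 0.24, adjusted p = 1.60e-04), while its naive to Th2 value was 0.42 (SE 0.26, adjusted p = 0.145).

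Ahr (chr12:35497974-35535038, minus strand), the ligand-activated receptor, was highest in the Th2 cultures. It had 3.98 and 2.95 CPM in naive WT and 6.15 and 5.88 CPM in naive KO cells. The Th1 WT libraries had 4.61, 3.60 and 6.80 CPM and the Th1 KO libraries 11.3, 7.99 and 11.6 CPM, and again the genotypes did not overlap. The Th2 WT libraries had 34.9, 21.7 and 62.9 CPM and the Th2 KO libraries 39.2, 39.4 and 51.6 CPM, the KO values lying within the WT range. The rise from naive to Th2 in WT was a log2 fold change of 3.46 (SE 0.38, adjusted p = 8.12e-09), and the naive to Th1 value was 0.50 (SE 0.47, adjusted p = 0.338).

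Il23r (chr6:67422932-67491855, minus strand) had no count in any of the 4 naive libraries, which allows up to 0.256 raw CPM in WT and 0.277 raw CPM in KO (3 counts over the group, counting error only). The Th1 WT libraries had 13.7, 7.10 and 17.4 CPM and the Th1 KO libraries 9.79, 13.99 and 16.7 CPM, which overlap. The Th2 WT libraries had 2 counts each, 0.236 to 0.240 CPM, and the Th2 KO libraries 10, 4 and 0 counts, or 1.15, 0.406 and 0 CPM. In WT, Th1 cells were thus at least 60.3-fold higher than naive cells (adjusted p = 2.10e-08). From naive to Th2 it did not pass (adjusted p = 0.184).

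In naive cells, Bcl6 and Rora were higher and Icos was lower in KO. The log2 fold change of Bcl6 was 0.70 (SE 0.17, adjusted p = 5.06e-04), that of Rora 0.61 (SE 0.21, adjusted p = 0.0265) and that of Icos -0.44 (SE 0.16, adjusted p = 0.0334). Of the 6 members tested 3 passed, where 17.7% of 11246 genes did, 8.75% as higher and 8.92% as lower. Ahr had 0.79 (SE 0.35, adjusted p = 0.110), Pou2af1 0.67 (SE 0.32, adjusted p = 0.135; 1.30 and 0.0275 without WT replicate 1) and Cxcr5 -0.06 (SE 0.41, adjusted p = 0.954). Il23r was not tested, having no count. The median over the 6 was 0.64, against 0.00 over all genes. The Bcl6 call was lost without KO replicate 1 (adjusted p = 0.0720) or KO replicate 2 (adjusted p = 0.140), and the calls of Icos and Rora were lost without any one of the 4 libraries and in DESeq2 (adjusted p = 0.251 and 0.228). Beside these calls, summed regulatory T cell markers (Foxp3, Ikzf2) were at 17.98 and 17.7 CPM in WT and 33.4 and 37.4 CPM in KO, CD8 markers at 14.9 and 15.04 against 29.9 and 30.4 CPM, and B cell markers at 219 and 221 against 160 and 163 CPM, of which Ighm alone made 207 and 154 CPM on average. Their part in the 3 calls was not tested.

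In the first culture no member passed in either cell type. Of the 7 members tested 0 were called in Th1 KO against WT, where 3.66% of 12616 genes were, and 0 in Th2, where 0.325% were. In Th1 the value nearest the threshold was that of Ahr, with a log2 fold change of 1.01 (SE 0.34, adjusted p = 0.119). It passed in 4 of 16 alternatives, among them those without Th2 WT replicate 2 or 3, which enter the shared spread (adjusted p = 0.0293 and 0.0148), and with no filter on low counts (adjusted p = 1.63e-08), where Pou2af1 also passed (adjusted p = 0.00295). Cxcr5 had 0.64 (SE 0.24, adjusted p = 0.170), Pou2af1 0.67 (SE 0.45, adjusted p = 0.504), Rora 0.17 (SE 0.19, adjusted p = 0.733), Icos 0.12 (SE 0.13, adjusted p = 0.726), Bcl6 0.11 (SE 0.30, adjusted p = 0.902) and Il23r 0.07 (SE 0.27, adjusted p = 0.927). Summed gamma-delta T cell markers were at 16.3 to 27.6 CPM in Th1 WT and 3.48 to 8.39 CPM in Th1 KO libraries. The Th2 genes Gata3, Il4 and Il13 rose in Th1 KO (log2 fold changes 0.84, 0.93 and 1.11, adjusted p = 0.0227, 0.0290 and 0.0243) and Ifng fell (-1.38, adjusted p = 6.09e-04), beside the value of Ahr, which was higher in Th2 than in Th1 cells. The part of these genes in the members' values was not tested.

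In Th2 cells Bcl6 had a log2 fold change of 0.98 (SE 0.27, adjusted p = 0.177), Cxcr5 0.83 (SE 0.26, adjusted p = 0.237) and Icos 0.42 (SE 0.14, adjusted p = 0.314), and for these 3 every KO library was above every WT library. The share of all genes whose libraries separate in this way was not counted, here or for the other separations given. Such orders therefore describe the libraries alone. Pou2af1 had 0.53 (SE 0.38, adjusted p = 0.744), Rora 0.44 (SE 0.22, adjusted p = 0.570) and Ahr 0.13 (SE 0.24, adjusted p = 0.935). Il23r had 1.01 (SE 1.08, adjusted p = 0.871) on 6 and 14 counts, and no difference was detectable at this depth. None passed, in a comparison in which 41 genes in all did (1182 at an unadjusted p under 0.05). With no filter on low counts Icos (adjusted p = 0.00739) and Pou2af1 (adjusted p = 0.0159) passed. Summed gamma-delta markers were at 5.79 to 10.9 CPM in Th2 WT and 1.98 to 4.24 CPM in Th2 KO, and innate lymphoid markers at 16.3 to 25.4 and 28.7 to 41.9 CPM. Their part in these values was not tested.

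**Figure D3:**
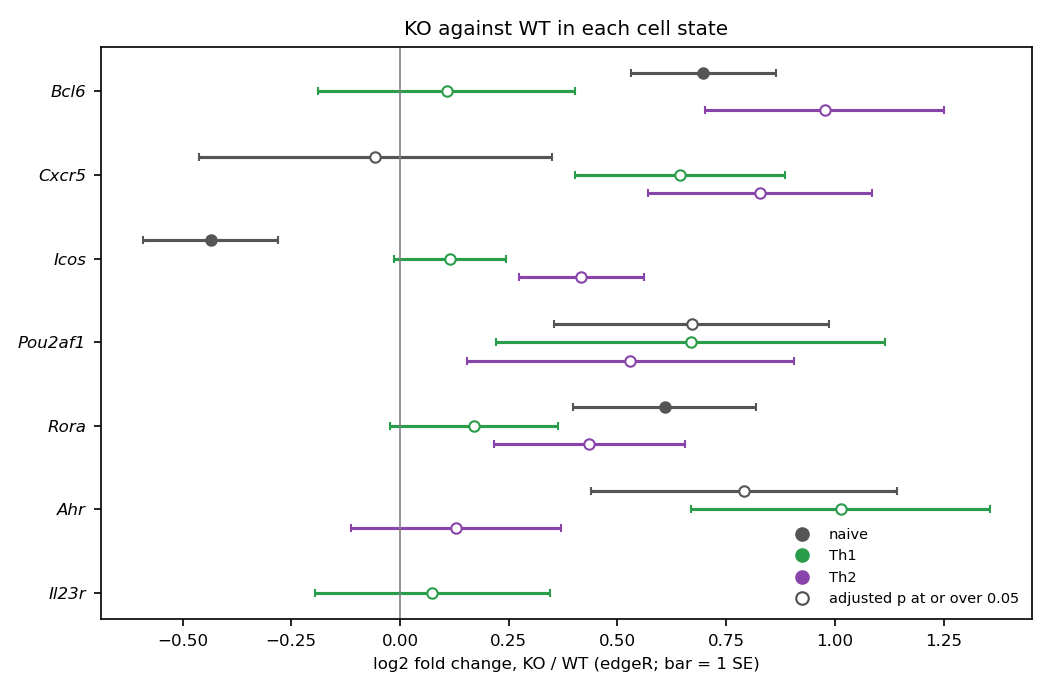
Log2 fold change of KO over WT (horizontal axis, edgeR, bars of 1 SE) for each gene in naive, Th1 and Th2 cells of the first culture; filled points have an adjusted p under 0.05 over all genes. Only the naive points of Bcl6, Icos and Rora are filled, and Icos lies at -0.44 in naive and 0.42 in Th2 cells; Il23r is shown for Th1 alone, since it had 0 counts in naive cells and 6 (WT) and 14 (KO) in Th2 cells.

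The KO differences were compared between cell states by a test of the difference itself. In naive cells the KO difference holds sex as well as genotype, while no first-culture library had a count of Uty. The contrasts with naive cells therefore cannot tell a dependence on cell state from the difference of sex. The Icos difference in naive cells was lower than that in Th2 cells, with a log2 difference of -0.86 (SE 0.23, adjusted p = 0.0360), at a background of 3.31% of 14029 genes, and Icos was the 1 member called. The KO libraries lay all below WT in naive cells and all above WT in Th2 cells. The call was lost without any one of the 4 naive libraries, without Th2 WT replicate 3 and without Th2 KO replicate 1 or 3 (adjusted p = 0.0529 to 0.171). Against Th1 the Icos value was -0.56 (SE 0.22, adjusted p = 0.206), with 0 members called and 3.05% of genes. The other members, in naive minus Th2 cells, had -0.29 for Bcl6 (SE 0.30), -0.89 for Cxcr5 (SE 0.43), 0.14 for Pou2af1 (SE 0.75), 0.17 for Rora (SE 0.35) and 0.66 for Ahr (SE 0.58), with adjusted p-values of 0.295 to 0.978. In naive minus Th1 cells they had 0.58 for Bcl6 (SE 0.33), -0.71 for Cxcr5 (SE 0.42), 0.0041 for Pou2af1 (SE 0.73), 0.44 for Rora (SE 0.34) and -0.23 for Ahr (SE 0.63), with adjusted p-values of 0.408 to 1. Il23r has no such value, since it had no count in naive cells. Between Th1 and Th2, the KO difference in Th1 minus that in Th2 was -0.87 for Bcl6 (SE 0.41, adjusted p = 0.511) and 0.88 for Ahr (SE 0.42, adjusted p = 0.513). It was -0.18 for Cxcr5 (SE 0.35), -0.30 for Icos (SE 0.19), 0.14 for Pou2af1 (SE 0.58), -0.27 for Rora (SE 0.29) and -0.93 for Il23r (SE 1.11), with adjusted p-values of 0.660 to 0.962. No gene passed in that contrast with edgeR (0% called, 1226 genes at an unadjusted p under 0.05), and 22 did with DESeq2.

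Th1 and Th2 cells differed in most members. In WT, Il23r was higher in Th1 with a log2 fold change of 5.68 (SE 0.56, adjusted p = 3.50e-07), Icos with 1.08 (SE 0.14, adjusted p = 9.93e-06) and Rora with 0.71 (SE 0.21, adjusted p = 0.0154). Ahr was lower with -2.97 (SE 0.30, adjusted p = 5.97e-07) and Pou2af1 with -1.47 (SE 0.43, adjusted p = 0.0144). Of 7 members 5 passed, where 29.5% of genes did, 13.7% as higher in Th1 and 15.8% as lower. Bcl6 had -0.28 (SE 0.30, adjusted p = 0.540) and Cxcr5 0.06 (SE 0.27, adjusted p = 0.897). Without Th2 WT replicate 2 the count was 3, since Pou2af1 (adjusted p = 0.110) and Rora (adjusted p = 0.0669) no longer passed. Rora also failed without Th1 WT replicate 3 (adjusted p = 0.128) or Th2 WT replicate 1 (adjusted p = 0.0551), and Pou2af1 without Th1 WT replicate 1 (adjusted p = 0.0801) or 2 (adjusted p = 0.0557) and in DESeq2 (adjusted p = 0.0655).

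In KO, the same contrast had 5 of 7 members past the threshold, with 17.5% of genes (8.01% higher in Th1, 9.50% lower). Il23r (4.74, SE 0.47, adjusted p = 8.36e-07) and Icos (0.77, SE 0.13, adjusted p = 4.40e-04) were higher in Th1. Ahr (-2.09, SE 0.27, adjusted p = 2.19e-05), Pou2af1 (-1.33, SE 0.39, adjusted p = 0.0225) and Bcl6 (-1.14, SE 0.27, adjusted p = 0.00518) were lower. Rora had 0.45 (SE 0.20, adjusted p = 0.138), which passed in 3 of 16 alternatives (with no filter 0.00182, without Th1 WT replicate 3 0.0484), and Cxcr5 -0.12 (SE 0.23, adjusted p = 0.771). Bcl6 passed in all 16 alternatives in KO and in none in WT, and the test of that difference is the one given above, with an adjusted p of 0.511. The Pou2af1 call was lost in DESeq2 (adjusted p = 0.149) and without Th1 KO replicate 1 (adjusted p = 0.0577), Th1 KO replicate 2 (adjusted p = 0.0855) or Th2 KO replicate 3 (adjusted p = 0.0987).

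Summed markers of innate lymphoid cells were at 16.3 to 41.9 CPM in the Th2 libraries and 2.76 to 11.7 CPM in the Th1 libraries of the first culture, mainly from Il1rl1, which Th2 cells also express. Of 11 B cell markers 7 were tested. In WT 4 were lower in Th1 than in Th2 (15.8% of all genes) and 0 higher (13.7%). In KO 3 were lower (9.50%) and 0 higher (8.01%). The median log2 fold change of these markers was -0.83 in WT and -1.10 in KO. The part of the innate lymphoid and B cell markers in the Ahr and Pou2af1 values was not tested.

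**Figure D4:**
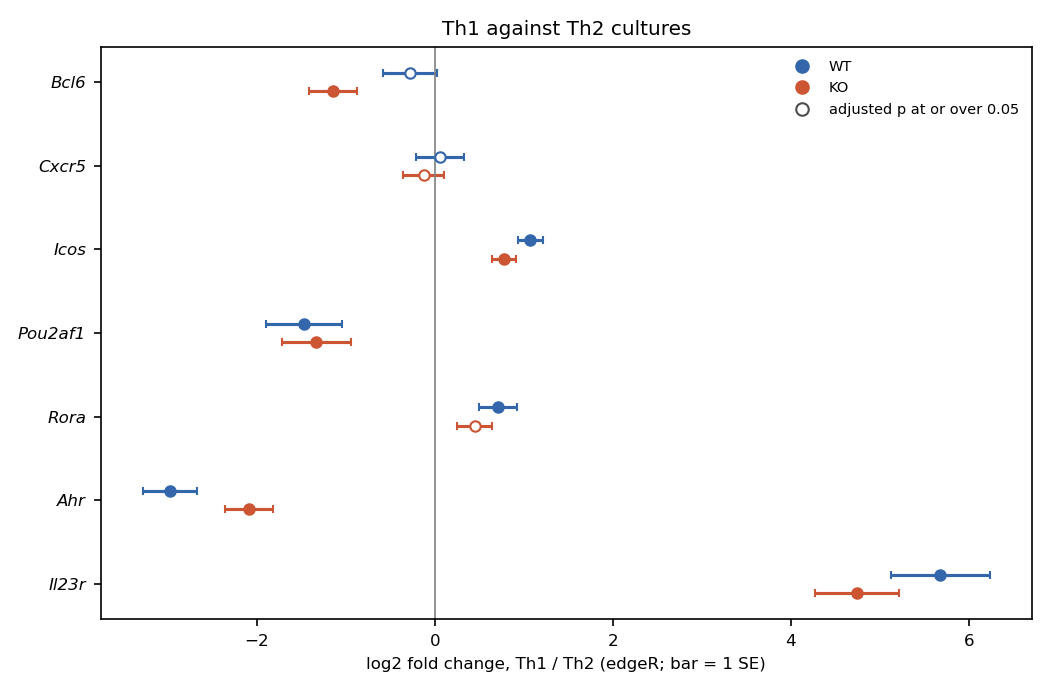
Log2 fold change of Th1 over Th2 (horizontal axis, edgeR, bars of 1 SE) for each gene in WT (blue) and KO (red) cells of the first culture; filled points have an adjusted p under 0.05. Il23r stands at 5.68 and 4.74 and Ahr at -2.97 and -2.09, and Bcl6 is filled in KO alone.

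In the second Th1 experiment 6 members were tested, since Pou2af1 was too low, and none was called in any of its comparisons. The share of all 11072 genes called was 1.24% for untransduced KO against WT, 0.190% for KO with the Ets1 virus against untransduced KO, 0.560% for KO with the Ets1 virus against WT with the empty virus, and 0% for the empty virus against none in WT (0 genes with edgeR, 268 at an unadjusted p under 0.05, 0 with DESeq2). Ahr had 6.59 and 7.75 CPM in untransduced WT, 18.2 and 8.32 CPM in untransduced KO, 4.19 and 10.2 CPM with the empty virus and 5.55 and 6.77 CPM with the Ets1 virus (B numbers 1 and 2). Both untransduced KO sums were above both WT sums (log2 fold change 0.98, SE 0.41, adjusted p = 0.299), an order also seen in the first culture. The untransduced KO sums held 57 and 13 counts of Ahr. Both Ets1 virus sums were below both untransduced KO sums (-1.20, SE 0.40, adjusted p = 0.288). Leaving out 1 sample gave 0.20 to 1.33 for the first of these Ahr values and -1.55 to -0.42 for the second. Bcl6 had 3.16 and 2.16 CPM in untransduced WT, 5.74 and 2.56 CPM in untransduced KO, 2.32 and 3.40 CPM with the empty virus and 1.11 and 1.92 CPM with the Ets1 virus. Its value with the Ets1 virus against untransduced KO was -1.53 (SE 0.55, adjusted p = 0.330), and for untransduced KO against WT 0.80 (SE 0.54, adjusted p = 0.563), on 18 and 4 counts in the untransduced KO sums. Without untransduced KO sum 1 the KO to WT value of Bcl6 was -0.02. Summed gamma-delta markers were at 11.1 and 12.4 CPM in untransduced WT and 2.55 and 2.56 CPM in untransduced KO. Virus and Ets1 content cannot be told apart in the contrast with untransduced KO.

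Icos, Rora and Il23r had higher levels in that experiment than in the first Th1 culture, with means in untransduced WT of 116, 67.1 and 27.7 CPM against 64.9, 24.4 and 12.7 CPM. Without TMM scaling the means lay closer, at 103, 58.7 and 24.4 CPM against 76.9, 29.0 and 15.1 CPM. This difference between sets was not tested. Icos had 122 and 111 CPM in untransduced WT, 164 and 122 CPM in untransduced KO, 112 and 121 CPM with the empty virus and 124 and 174 CPM with the Ets1 virus, and its untransduced KO to WT value was 0.31 (SE 0.18, adjusted p = 0.485). Il23r had 26.9 and 28.5 CPM, 30.3 and 37.1 CPM, 23.3 and 25.6 CPM, and 48.1 and 19.8 CPM in the same order of groups, with 0.26 (SE 0.32, adjusted p = 0.777) for untransduced KO against WT. Rora had 60.1 and 74.0 CPM, 72.7 and 67.8 CPM, 66.6 and 77.8 CPM, and 106 and 43.8 CPM. In the KO cells with the Ets1 virus the B number 1 sum was thus the higher in Rora and Il23r and the lower in Icos, and the single libraries behind each sum lay close together: Rora was at 107 and 99.3 CPM in the 2 libraries of B number 1 and at 44.2 and 41.7 CPM in those of B number 2. Cxcr5 ranged from 5.04 to 11.1 CPM over the 8 sums. The fold changes of untransduced KO over WT were 0.32 for Cxcr5 (SE 0.43, adjusted p = 0.798) and 0.07 for Rora (SE 0.29, adjusted p = 0.947).

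The other virus contrasts of the members were as follows. For the Ets1 virus in KO against untransduced KO, Cxcr5 had a log2 fold change of 0.15 (SE 0.40), Icos 0.04 (SE 0.18), Rora 0.05 (SE 0.28) and Il23r -0.0064 (SE 0.31), with adjusted p-values of 0.936 to 0.998. For the Ets1 virus in KO against the empty virus in WT, Bcl6 had -0.80 (SE 0.51), Cxcr5 0.54 (SE 0.34), Icos 0.36 (SE 0.18), Rora 0.04 (SE 0.27), Ahr -0.09 (SE 0.39) and Il23r 0.45 (SE 0.28), with adjusted p-values of 0.535 to 0.979. For the empty virus against none in WT the 6 values ran from -0.20 (Il23r, SE 0.29) to 0.08 (Rora, SE 0.27), with Bcl6 at 0.07 (SE 0.50), Cxcr5 at -0.06 (SE 0.37), Icos at -0.0098 (SE 0.18) and Ahr at -0.13 (SE 0.40). Genotype and virus cannot be told apart in the contrast of the Ets1 virus with the empty virus.

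On a list of 20 other Tfh genes, 7 of the 17 tested rose and 1 fell in naive KO cells (8.75% and 8.92% of all genes), with a median log2 fold change of 0.29 against 0.00 over all genes. They included Pdcd1, the inhibitory receptor PD-1 (2.43, SE 0.60, adjusted p = 9.07e-04, from 0.590 to 3.27 CPM), P2rx7 (1.10, SE 0.15, adjusted p = 4.17e-11), Id3 (0.97, SE 0.24, adjusted p = 6.80e-04), Il6st (0.67, SE 0.06, adjusted p = 4.55e-22) and Tox (0.42, SE 0.10, adjusted p = 3.68e-04), while Gpr183, the receptor that holds cells outside follicles, fell (-0.69, SE 0.08, adjusted p = 5.50e-15). In Th1 KO cells, where 3.66% of all genes were called, 3 of 19 rose and 1 fell. These were the transcription factor Maf (1.03, SE 0.23, adjusted p = 0.0145), the interleukin 6 receptor chains Il6ra (0.66, SE 0.13, adjusted p = 0.00831) and Il6st (0.74, SE 0.15, adjusted p = 0.00904), and Gpr183 (-0.72, SE 0.20, adjusted p = 0.0498). In Th2 KO cells 0 of 19 passed (0.325% of all genes). The list medians were 0.13 in Th1 and 0.15 in Th2. Among the 5 genes that oppose the Tfh fate, Klf2 alone was called in naive KO and fell (-0.19, SE 0.06, adjusted p = 0.0104). Id2 alone was called in Th1 KO and rose (0.53, SE 0.12, adjusted p = 0.0148). Between Th1 and Th2, 1 of the 5 was higher in Th1 and 1 lower (13.7% and 15.8% of all genes in WT, 8.01% and 9.50% in KO). Prdm1, the antagonist of Bcl6, was higher in Th1 in WT (1.59, SE 0.26, adjusted p = 1.14e-04) and KO (1.28, SE 0.26, adjusted p = 0.00151). Id2 was lower in Th1 in WT (-0.77, SE 0.12, adjusted p = 5.85e-05) and KO (-0.38, SE 0.12, adjusted p = 0.0305).

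Between Th1 and Th2 in WT, 3 of 19 other Tfh genes were higher in Th1 and 9 lower (13.7% and 15.8% of all genes; median -0.30, all genes -0.01), and in KO 1 was higher and 7 lower (8.01% and 9.50% of all genes). Slamf6 had -2.18 (SE 0.42, adjusted p = 6.47e-04), Il6ra -1.47 (SE 0.13, adjusted p = 1.11e-07) and P2rx7 1.73 (SE 0.13, adjusted p = 1.07e-08) in WT. Tox2 was at 2.73 ± 0.996 CPM in Th2 WT cells and had 2 counts in all Th1 WT libraries together. The Tfh cytokine gene Il21 was at 89.7 ± 18.8 CPM in Th1 WT and 101 ± 9.19 CPM in Th2 WT cells (SD, n = 3), and had no count in naive WT cells.

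The Th17 cytokine genes Il17a, Il17f and Il22 were low in all groups. Il17a was at 0.352 ± 0.122 CPM in Th1 WT and 1.42 ± 0.770 CPM in Th2 WT cells (SD, n = 3) and had no count in naive or untransduced Th1 cells. Of 18 other Th17 genes, 2 rose and 2 fell among the 8 tested in naive KO cells (median -0.18), where 17.7% of all genes were called. They were Batf (0.76, SE 0.17, adjusted p = 1.84e-04) and Il21r (0.26, SE 0.07, adjusted p = 0.00396), and Irf4 (-1.56, SE 0.16, adjusted p = 5.17e-18) and Nfkbiz (-0.24, SE 0.08, adjusted p = 0.0226). In Th1 KO cells Tgfbr1 rose (0.81, SE 0.11, adjusted p = 6.09e-04) and Ltb4r1 fell (-0.93, SE 0.20, adjusted p = 0.0145) of 15 tested (median 0.04, 3.66% of all genes called), and in Th2 KO cells 0 of 15 passed (median -0.06). Between Th1 and Th2 in WT, 2 of 15 were higher in Th1 and 7 lower (median -0.34, 29.5% of all genes called), among them Il1r1 (-1.92, SE 0.29, adjusted p = 5.47e-05) and Batf (-1.01, SE 0.16, adjusted p = 8.53e-05), and Il22, which was higher (2.04, SE 0.61, adjusted p = 0.0152, 51 against 9 counts). Il17f had 1 count in all Th1 WT libraries together and 97 in Th2 WT, of which 1 library had none (0 to 9.34 CPM).

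**Figure D5:**
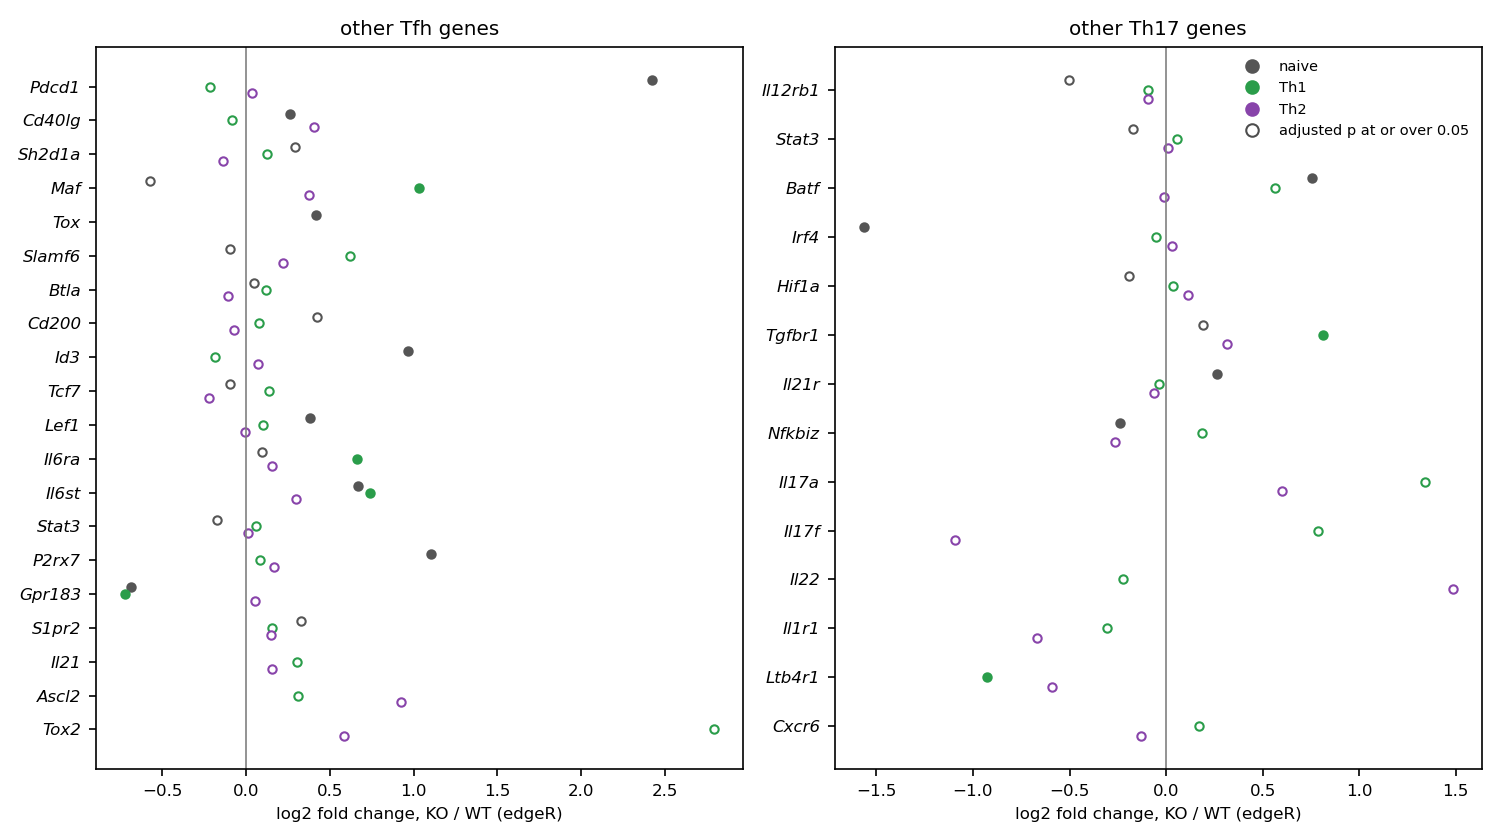
Log2 fold change of KO over WT (horizontal axes, edgeR) of other Tfh genes (left) and of the other Th17 genes whose values are reported (right) in naive, Th1 and Th2 cells; filled points have an adjusted p under 0.05. Filled points are mostly naive, with Pdcd1 at 2.43 and Irf4 at -1.56, and none belongs to Th2; the Th1 point of Tox2 rests on 2 WT and 16 KO counts.

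Cyp1a1 and Ahrr, targets of the aryl hydrocarbon receptor, were under 1 CPM in all groups. Cyp1a1, the classical target, was at 0.713 ± 0.237 CPM in Th2 WT and 0.213 ± 0.141 CPM in Th1 WT cells, and Ahrr, the repressor of the receptor, at 0.435 ± 0.245 and 0.115 ± 0.0998 CPM (SD, n = 3). Of the 9 partners and targets listed, 5 were tested, of which 3 passed in naive KO (17.7% of all genes) and 1 in Th1 KO (3.66%). Tiparp, a target that feeds back on the receptor, rose in naive KO (0.45, SE 0.11, adjusted p = 0.00105) and in Th1 KO cells (0.55, SE 0.08, adjusted p = 7.94e-04), where it was the 1 gene called (list median 0.03). In naive KO cells Hsp90ab1 (0.50, SE 0.05, adjusted p = 3.68e-18) and Ptges3 (0.41, SE 0.11, adjusted p = 0.00186) of the receptor's chaperone complex were also called higher (list median 0.41). The heat shock gene Hspa1a was at 19.98 CPM in naive WT and 292 CPM in naive KO cells, and genotype and sex cannot be told apart there. The part of a wider heat shock difference in these calls was not tested. The Tiparp levels were 60.5 ± 5.34 CPM in Th1 WT and 88.9 ± 3.36 CPM in Th1 KO cells (SD, n = 3). Tiparp and Ahr did not move together in all groups. In Th2 KO cells Tiparp had 0.34 (SE 0.08, adjusted p = 0.0887) and Ahr 0.13. Tiparp was at 26.8 and 26.9 CPM in untransduced KO and at 25.3 and 25.4 CPM with the Ets1 virus. Ahr was at 18.2 and 8.32 CPM and at 5.55 and 6.77 CPM in these groups. Of the 2 OCT partners of Pou2af1, Pou2f2 was lower in Th1 than in Th2 cells in WT (-0.54, SE 0.17, adjusted p = 0.0191) and KO (-0.70, SE 0.16, adjusted p = 0.00567). Of 6 genes of ICOS signalling, Pik3cd fell (-0.35, SE 0.06, adjusted p = 4.67e-07) and Rc3h1 rose (0.26, SE 0.08, adjusted p = 0.00543) in naive KO cells (17.7% of all genes called), and Pik3r1 fell in Th2 KO cells (-0.40, SE 0.08, adjusted p = 0.0474, 0.325% of all genes called).

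By their pattern over the 10 group means, on the log2(mean CPM + 1) scale and among 9772 genes tested in all fits, the genes most like each member were Trim62 for Bcl6 (Pearson r = 0.986), Nhsl1 for Cxcr5 (0.948), Ube2e1 for Icos (0.992), Mplkip for Pou2af1 (0.977), Larp4 for Rora (0.988), Tmem43 for Ahr (0.944) and Arl5a for Il23r (0.987). Next came Cyb561d1 and Ep300, Lin7c and Cdk17, Arl5a and Gnaq, Spsb1 and Mboat1, Capza1 and Zfand6, Fam234a and Ripor3, and Susd1 and Cobll1. Among the members themselves, Icos and Il23r (r = 0.971), Icos and Rora (0.953) and Rora and Il23r (0.920) were most alike. All groups of the second experiment are Th1 cells of one set, so these 10 means are not independent, and the values are a description.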

How the data were processed

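RNA was read with a stranded total RNA kit (SMARTer Stranded Total RNA-Seq Pico v2) and paired-end sequencing, per the labels' protocols. The authors deposited a table of counts per gene for each of 36 libraries, made with STAR 2.5.0a on GRCm38 per the submitters' processing notes, which do not name the gene annotation. The strand column that held 93.3% to 95.2% of the stranded counts was used. The 4 summary lines, 63.6% to 76.0% of a table's total, were left out of library sizes and tests. Of 45706 identifiers 45143 matched a GENCODE M21 symbol.

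Groups came from the labels, and 8 libraries whose labels conflict entered no comparison. Fold changes, standard errors (absolute log2 fold change over the root of F) and Benjamini-Hochberg adjusted p-values over all genes tested are from edgeR 4.0.16 in R 4.3.3 (quasi-likelihood test, TMM, filterByExpr, threshold 0.05). The naive set, the first culture and the second experiment were fitted separately, and naive cells with the first culture in a further fit. The fits were tested on simulated data. Alternatives were DESeq2 1.42.0, no filter on low counts, counts without strand, a replicate block, second-experiment libraries kept separate, unscaled CPM, and leaving out each sample in turn.

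The members and lists were chosen with earlier results of these data known. All 7 members are described in every comparison, and for each other list the genes named were among those past the threshold, largest first, with low genes given as CPM or counts. Of 93 member fold changes tested 89 are given, and the other 4, of Il23r against naive libraries at 0 counts, are given as a bound or as levels. Few or no counts limit Il23r in naive and Th2 cells and Pou2af1 in the second experiment, and limits from counts of 0 use 3 counts and cover counting error only. The listed counts and sums include genes whose own values are not reported here.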

Additional observations from a re-analysis of the deposited data

Results flagged for a closer look

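The KO difference of Icos in naive and in Th2 cells differed past the threshold, in a call that rests on single libraries. On the log2 scale the difference in naive cells minus that in Th2 cells was -0.86 (SE 0.23, adjusted p = 0.0360, edgeR interaction term, n = 2 libraries per genotype in naive and 3 in Th2 cells), with both naive KO libraries below both naive WT libraries and all 3 Th2 KO libraries above all 3 Th2 WT libraries. It is listed here because the effect of one contrast differed between cell states by a test of the difference itself. It was lost without any one of the 4 naive libraries, Th2 WT replicate 3 or Th2 KO replicate 1 or 3 (adjusted p = 0.0529 to 0.171). The naive WT and KO libraries also differ in Xist and Uty, and naive and cultured cells were separate sets.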

How the results depend on the processing

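Counts of genes called moved as follows. With DESeq2, 865 genes in place of 1987 were called in naive KO, 78 in place of 41 in Th2 KO, 22 in place of 0 for the KO difference between Th1 and Th2, and 40 in place of 21 for the Ets1 virus against untransduced KO. With no filter on low counts the calls were 835 in place of 462 in Th1 KO, 224 in Th2 KO, 213 for the KO difference between Th1 and Th2, 416 in place of 137 in untransduced KO, 212 for the Ets1 virus against untransduced KO, 17 in place of 0 for the empty virus, and 257 in place of 62 for the Ets1 virus in KO against the empty virus in WT. With second-experiment libraries kept separate they were 266 for untransduced KO, 126 for the Ets1 virus against untransduced KO and 441 against the empty virus. Leaving out 1 sample gave 399 to 1217 genes in naive KO, 176 to 600 in Th1 KO, 14 to 68 in Th2 KO, 1380 to 2413 (in place of 2210) between Th1 and Th2 in KO, 0 to 3 for the KO difference between Th1 and Th2, 22 to 188 in untransduced KO, 0 to 55 for the Ets1 virus against untransduced KO, 0 to 5 for the empty virus, 10 to 91 for the Ets1 virus against the empty virus, 170 to 520 (in place of 428) for the KO difference in naive against Th1 and 190 to 546 (in place of 465) against Th2. The cause was not tested in these cases, apart from the smaller number of samples.

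Members called in naive KO went from 3 to 1 with DESeq2, 1 with no filter and 0 to 2 without 1 library. With no filter, 2 passed in Th1 KO, 2 in Th2 KO, 1 (Ahr) for the KO difference between Th1 and Th2 and 1 (Ahr) for the Ets1 virus against untransduced KO. Leaving out 1 sample gave 0 to 1 in Th1 KO, 3 to 5 (in place of 5) between Th1 and Th2 in WT, and 0 to 1 (in place of 1, Icos) for the KO difference in naive against Th2. A lone naive library was then taken to vary like the other genotype.

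The labels do not say that a replicate number pairs samples. Correlations of the deviations of same-numbered samples were -0.0724 to 0.1998 over 18 pairs of the first culture (3 over 0.1) and -0.0461 in naive cells. In the second experiment all 12 were positive, at 0.0464 to 0.2987 (6 over 0.1). With 2 sums per group, the pairs of B number 1 and of B number 2 have the same value by construction, so the 12 are not independent. Uty had counts in the B number 1 sums alone, so B number goes with sex in every group, a difference that the main fit leaves in the spread. The correlations and Uty are a hint of pairing from the data that the labels do not state. As not every correlation was over 0.1, the block is given as an alternative. With the replicate block, 63 genes were called in Th2 KO, 212 in untransduced KO, 45 for the Ets1 virus against untransduced KO and 95 against the empty virus, and 1 member, Ahr, passed in Th1 KO (adjusted p = 0.00707). Rora between Th1 and Th2 in KO (adjusted p = 0.0112) also passed with it, and no member call of the second experiment changed. From naive to cultured cells the block fit is not the same comparison. Its blocks lie within each set, so it sets culture replicate 3 against naive replicate 2 and not group means. Rora from naive to Th2 (0.71, adjusted p = 0.00301) and Ahr from naive to Th1 (0.99, adjusted p = 0.0187) passed in that other comparison. With no filter, Rora passed from naive to Th2 (adjusted p = 0.0185).

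The sign changed under at least 1 alternative for 32 of the 89 member fold changes given, and 0 of these were past the threshold; the other 57 kept their sign. Leaving out 1 sample moved the log2 values of those that reversed as follows. In naive KO the range was Cxcr5 -0.16 to 0.052 and Pou2af1 -0.021 to 1.30. In Th1 KO the range was Il23r -0.21 to 0.36. In Th2 KO the range was Ahr -0.16 to 0.62 and Il23r -0.23 to 1.62. Between Th1 and Th2 in WT the range was Cxcr5 -0.15 to 0.21. Between Th1 and Th2 in KO the range was Cxcr5 -0.28 to 0.015. From naive to Th1 the range was Pou2af1 -0.60 to 0.97. From naive to Th2 the range was Icos -0.10 to 0.22. For the KO difference in Th1 minus Th2 the range was Cxcr5 -0.33 to 0.029, Il23r -1.55 to 0.31, Pou2af1 -0.37 to 1.05 and Rora -0.47 to 0.059. For the KO difference in naive minus Th1 the range was Ahr -0.52 to 0.025 and Pou2af1 -0.91 to 0.65. For the KO difference in naive minus Th2 the range was Pou2af1 -0.54 to 0.79 and Rora -0.034 to 0.31. In untransduced KO the range was Bcl6 -0.025 to 1.14, Cxcr5 -0.055 to 0.77 and Rora -0.074 to 0.23. For the Ets1 virus against untransduced KO the range was Cxcr5 -0.31 to 0.56, Icos -0.23 to 0.29, Il23r -0.74 to 0.52 and Rora -0.69 to 0.57. For the Ets1 virus against the empty virus the range was Ahr -0.72 to 0.57, Il23r -0.29 to 0.98 and Rora -0.70 to 0.55. For the empty virus against none the range was Ahr -0.80 to 0.50, Bcl6 -0.21 to 0.39, Cxcr5 -0.32 to 0.18, Icos -0.074 to 0.060 and Rora -0.051 to 0.25. Without strand the reversed values were Cxcr5 in naive KO 0.11, Il23r for the Ets1 virus against untransduced KO 0.0070 and Bcl6 for the empty virus against none -0.046. With no filter the reversed values were Il23r for the Ets1 virus against untransduced KO 0.024 and Icos for the empty virus against none 2.5e-04. With DESeq2 the reversed values were Icos from naive to Th2 -0.012 and Pou2af1 for the KO difference in naive minus Th1 -0.031. With the replicate block the reversed values were Icos from naive to Th2 -0.042 and Pou2af1 for the KO difference in naive minus Th1 -0.072. That Icos value sets the last culture replicate against the last naive one and not group means. With unscaled CPM, 27 of the members' 70 group levels moved by over 1 SD.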

Other observations

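The 8 libraries whose labels conflict fall into 2 kinds of 4 libraries each, given as ranges. Where the title names KO cells with the empty virus and the transduction label the Ets1 virus, Bcl6 was at 1.30 to 3.64 CPM, Cxcr5 at 4.45 to 7.44, Icos at 119 to 144, Pou2af1 at 0.354 to 1.45, Rora at 68.8 to 79.6, Ahr at 1.95 to 4.96 and Il23r at 15.4 to 22.7 CPM. Ets1 was at 694 to 767 CPM and Gm27162 at 3.24 to 6.18 CPM in them. Where the title names WT cells with the Ets1 virus and the label the empty virus, Bcl6 was at 1.46 to 5.46 CPM, Cxcr5 at 4.49 to 10.9, Icos at 130 to 185, Pou2af1 at 0 to 1.58, Rora at 39.6 to 91.2, Ahr at 7.40 to 10.5 and Il23r at 20.2 to 40.1 CPM. Ets1 was at 222 to 306 CPM in these, and Gm27162 had no count. In the labelled samples Gm27162 had no count in KO and was at 1.42 CPM or more in WT. In both kinds Gm27162 thus goes against the genotype in the title, and the values above should not be read as those of that genotype.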
